A study of Macaca mulatta with 22 samples.

Results

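The proteasome subunit genes were followed across 22 single rhesus macaque oocytes and embryos in a deposited table of RPKM values (read counts scaled to transcript length and library size). An entry of the table was taken as a member if its gene symbol began with PSM, a letter A to G and a digit, and if it reached 1 RPKM in at least 2 of the 22 libraries. Of 35468 entries, 49 had such a symbol and 45 passed, among 14312 entries that passed the same filter. The 45 entries carry 42 symbols, and 43 of them, of 40 genes, are proteasome subunits, assembly chaperones or regulators. PSMC3IP and PSME3IP1 are not and are described apart. Both stay in every count and share of the 45 entries, which are called proteasome entries for short. The 4 entries that did not pass were PSMB11, listed at 0 in every library, and second entries of PSMB2, PSMB3 and PSMC6 with highest values of 0.029, 0.266 and 0.986 RPKM. Just inside the limit stood PSMB8 and the PSMC6 entry IMMRNTR253, with highest values of 1.40 and 1.86 RPKM. PSMB8 passed through the 2 blastocysts alone, so it had to differ between stages, and its calls at Bl add no support.

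The oocytes were at the germinal vesicle stage (GV, 2 libraries), in metaphase of the first meiotic division (MI, 2 libraries) or in metaphase of the second (MII, 3 libraries). The embryos were pronuclear zygotes (PN, 3 libraries), embryos of 2 cells (2C, 2 libraries), 4 cells (4C, 3 libraries) or 8 cells (8C, 2 libraries), morulae (Mo, 3 libraries) and blastocysts (Bl, 2 libraries). The donors of the oocytes had been superovulated and the oocytes were taken after their death. Embryos came from sperm injection and culture, so PN, Bl and every other embryo stage differ from MII in source as well as stage. These contributions cannot be told apart. No label gives a genotype, a further treatment, an age or a named donor for any single oocyte or embryo, so the p-values rest on how individual oocytes or embryos of a stage differ, with that spread pooled across the 9 stages. RPKM is a share of each library, and in embryos of many cells fewer cells of a type and less RNA per cell cannot be told apart.

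The proteasome degrades proteins that carry ubiquitin chains. Its core particle is a barrel of alpha rings, which gate the entry, around beta rings, which hold the catalytic sites PSMB5, PSMB6 and PSMB7. A regulatory particle caps the core, with a base of ATPases (PSMC genes) that unfold the substrate and a lid that removes ubiquitin, and other caps and chaperones complete the family. In oocytes and early embryos the proteasome is known for the breakdown of cyclins at meiotic exit and of maternal proteins after fertilization.

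The libraries held an estimated 5.58 to 21.4 M reads. Lists of marker genes followed the stage names. The summed level of 10 oocyte genes was 3.13 to 7.64 RPKM at Bl and 3002 to 3389.7 RPKM at GV. That of 5 genome activation genes was 11.8 to 15.4 RPKM at 4C, 5527 to 7074 RPKM at 8C and 1328 to 6645 RPKM at Mo. That of 6 trophectoderm genes was 915 to 1233 RPKM at Bl. Mo library 2 stood apart, with 4277 entries at 1 RPKM or more against 6763 to 10017 in the other libraries. In it, 9 of the 45 proteasome entries were at 0, against 2 each in Mo libraries 1 and 3. The 2 blastocysts also differed. Of the 45 entries, 43 were higher in Bl library 1 than in Bl library 2, with a median ratio of 1.85, while the median ratio over the 10497 tested entries above 0 in both was 0.884. The summed RPKM over all entries was 650643 in Bl library 1, the highest of the 22 libraries, and 387069 in Bl library 2.

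Proteasome entries most often had their highest level in blastocysts. Of the 45, 12 (26.7%) were called lower in MII than in GV oocytes, against 8.97% of all tested entries. That count fell with median-of-ratios scaling and with single libraries left out, as given below. The log2 change of MII against GV was below 0 for 32 of 45 entries (71.1%) and for 60.7% of all tested entries. The highest stage mean was at Bl for 26 of the 45 entries (57.8%), against 18.1% of all tested entries. It was at GV for 7, at 8C for 4, at MII for 3, at PN for 2, and at MI, 2C and 4C for 1 each. The 26 include PSMB8, whose peak at Bl was fixed by the filter, and PSMC3IP, which is outside the proteasome. They also include more than 1 entry of PSMC6. A highest mean at Bl can rest on Bl library 1, in which 43 of the 45 entries were higher than in Bl library 2. In Bl library 2 PSMA6 measured 338 RPKM, below its GV mean of 468, while PSMD14 measured 139 RPKM, above every library of other stages. The lowest mean lay at MII, PN, 2C or 4C for 26 entries (57.8%), against 33.0% of all tested entries, and at Bl for none, against 12.3%. In a limma F test over the 9 stages 36 of the 45 entries were called at adjusted p under 0.05, a share of 80.0%, where 68.3% of all tested entries were called.

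**Figure D1:**
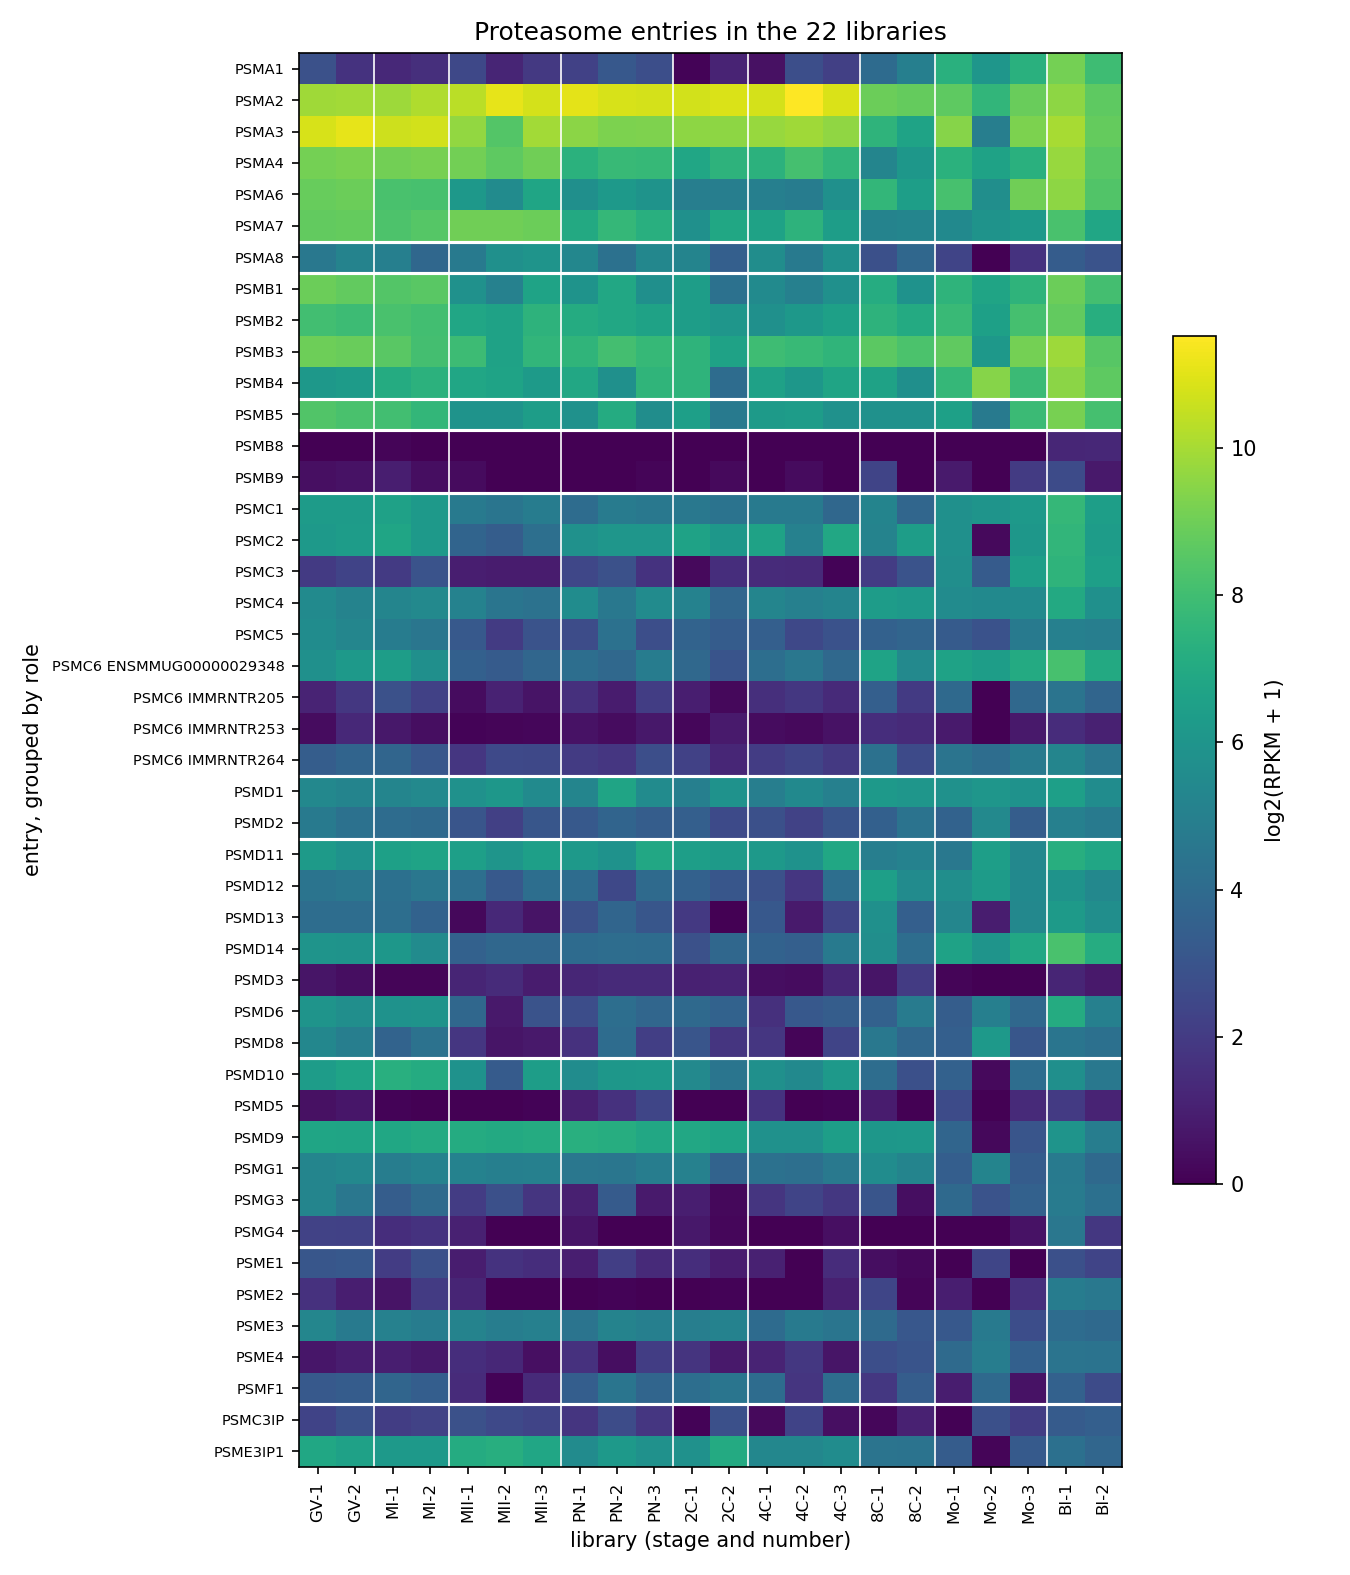
Level of each of the 45 entries, as log2(RPKM + 1), in each of the 22 libraries, with stages in developmental order and entries grouped by role from the alpha ring at the top to the genes outside the proteasome at the bottom. Many rows are brighter in the GV, MI and Bl columns than between them, PSMA2 is bright throughout, and PSMA1 and PSMC3 brighten only in the last stages.

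The alpha ring genes did not move together. PSMA2 (ENSMMUG00000022451) was the most abundant proteasome entry over all libraries. Oocytes held 950.0 and 974 RPKM at GV, 900.2 and 1128 at MI and 1284, 2181 and 1753 at MII. In embryos it measured 2085, 1832 and 1734 RPKM at PN, 1722 and 1883 at 2C, 1774, 2929 and 1891 at 4C, 488 and 438 at 8C, 405, 191 and 476 at Mo and 748 and 405 at Bl. Every library from MII to 4C was above every GV and MI library and above every library from 8C on. PSMA3 (ENSMMUG00000003509) instead was highest in the GV and MI oocytes, with 1784 and 2181 RPKM at GV and 1595 and 1698 at MI. It measured 810.4, 347 and 976 at MII, 181 and 103 at 8C and 1037 and 441 at Bl.

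PSMA1 (ENSMMUG00000016446) stood at the other end. It measured 6.25 and 2.23 RPKM at GV, 1.55 and 1.97 at MI and 4.61, 1.29 and 2.72 at MII, then 3.62, 7.97 and 5.82 at PN, 0.071 and 1.20 at 2C and 0.452, 5.86 and 3.55 at 4C. From 8C on it measured 15.3 and 30.0 RPKM at 8C, 155, 64.4 and 159 at Mo and 546 and 247 at Bl. All 15 libraries up to 4C lay below 8 RPKM and all 7 later libraries above 15, and the 8C, Mo and Bl groups did not overlap. The entry spans 92859 bp on chromosome 14, 57319183 to 57412041.

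PSMA6 (ENSMMUG00000016544) followed the usual course, with 452 and 484 RPKM at GV, 69.4, 46.5 and 108 at MII, 29.0 and 29.0 at 2C, 194 and 87.8 at 8C, 284, 51.0 and 514 at Mo and 754 and 338 at Bl. PSMA4 (ENSMMUG00000010740) and PSMA7 (ENSMMUG00000018354) had similar values at GV and MII and lower ones after fertilization. PSMA4 measured 557 and 591 RPKM at GV, 543, 403 and 519 at MII, 163, 214 and 209 at PN, 170.0, 281 and 193 at 4C, 36.6 and 68.4 at 8C, 163, 99.8 and 155 at Mo and 851 and 376 at Bl. PSMA7 measured 432 and 449 RPKM at GV, 511, 518 and 485 at MII, 128, 204 and 153 at PN, 97.1, 172 and 85.3 at 4C, 34.2 and 36.9 at 8C, 43.4, 59.3 and 74.2 at Mo and 292 and 111 at Bl. For both genes the MII and PN libraries did not overlap, nor did the 8C and 4C libraries. PSMA5, the remaining ring gene, is named for its entry only in another column of the file and is no member under the rule. It measured 518 and 568 RPKM at GV, 799, 1428 and 1184 at MII, 372 and 211 at 8C and 457 and 225 at Bl.

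In PSMA8 (ENSMMUG00000018066), which in mouse replaces PSMA7 in the proteasome of male germ cells, values were 23.3 and 34.5 RPKM at GV, 29.9 and 13.4 at MI, 25.1, 54.0 and 61.2 at MII, 39.5, 18.9 and 39.1 at PN, 35.5 and 10.1 at 2C and 49.5, 25.1 and 54.6 at 4C. Later embryos had 5.94 and 13.3 RPKM at 8C, 4.07, 0 and 2.27 at Mo and 9.05 and 6.64 at Bl. The gene was thus detected in every oocyte, and its 4C libraries were all above its 8C libraries.

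The spread of levels within the alpha ring was wide in oocytes and early embryos and narrow in blastocysts. At GV and MI the width rested on 1 gene, PSMA1. The description was chosen after the values were seen and has no test. It does not depend on scaling, because each ratio lies within 1 library. Among the 6 member genes PSMA1 to PSMA4, PSMA6 and PSMA7, the highest exceeded the lowest 285 to 977-fold at GV, 278 to 1688-fold at MII, 499.6 to 3925-fold at 4C, 14.6 to 31.9-fold at 8C, 6.43 to 15.6-fold at Mo and 3.54 to 3.98-fold at Bl, over the libraries of each stage. The low gene was PSMA1 up to 4C. With PSMA5 in and PSMA1 out, the ratio was 4.13 to 4.86 at GV, 5.49 to 5.91 at MI, 16.2 to 46.9 at MII, 25.5 to 40.3 at PN, 59.3 to 64.8 at 2C, 35.1 to 107 at 4C, 11.9 to 14.3 at 8C, 6.43 to 15.6 at Mo and 3.54 to 3.98 at Bl. So all groups from MII to Mo lay above GV and MI, and GV and MI were the nearest to Bl. The beta ring, with PSMB6 and PSMB7 included, had ratios of 5.98 to 7.59 at GV, 2.77 to 3.44 at MI and 2.58 to 5.85 at MII. In embryos its ratios were 4.22 to 4.93 at PN, 2.96 to 6.26 at 2C and 3.89 to 9.60 at 4C. Later they were 6.82 to 12.7 at 8C, 3.37 to 26.1 at Mo and 3.02 to 4.03 at Bl. The highest, 26.1, was in Mo library 2, and the ratios at MI were as low as those at Bl.

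**Figure D2:**
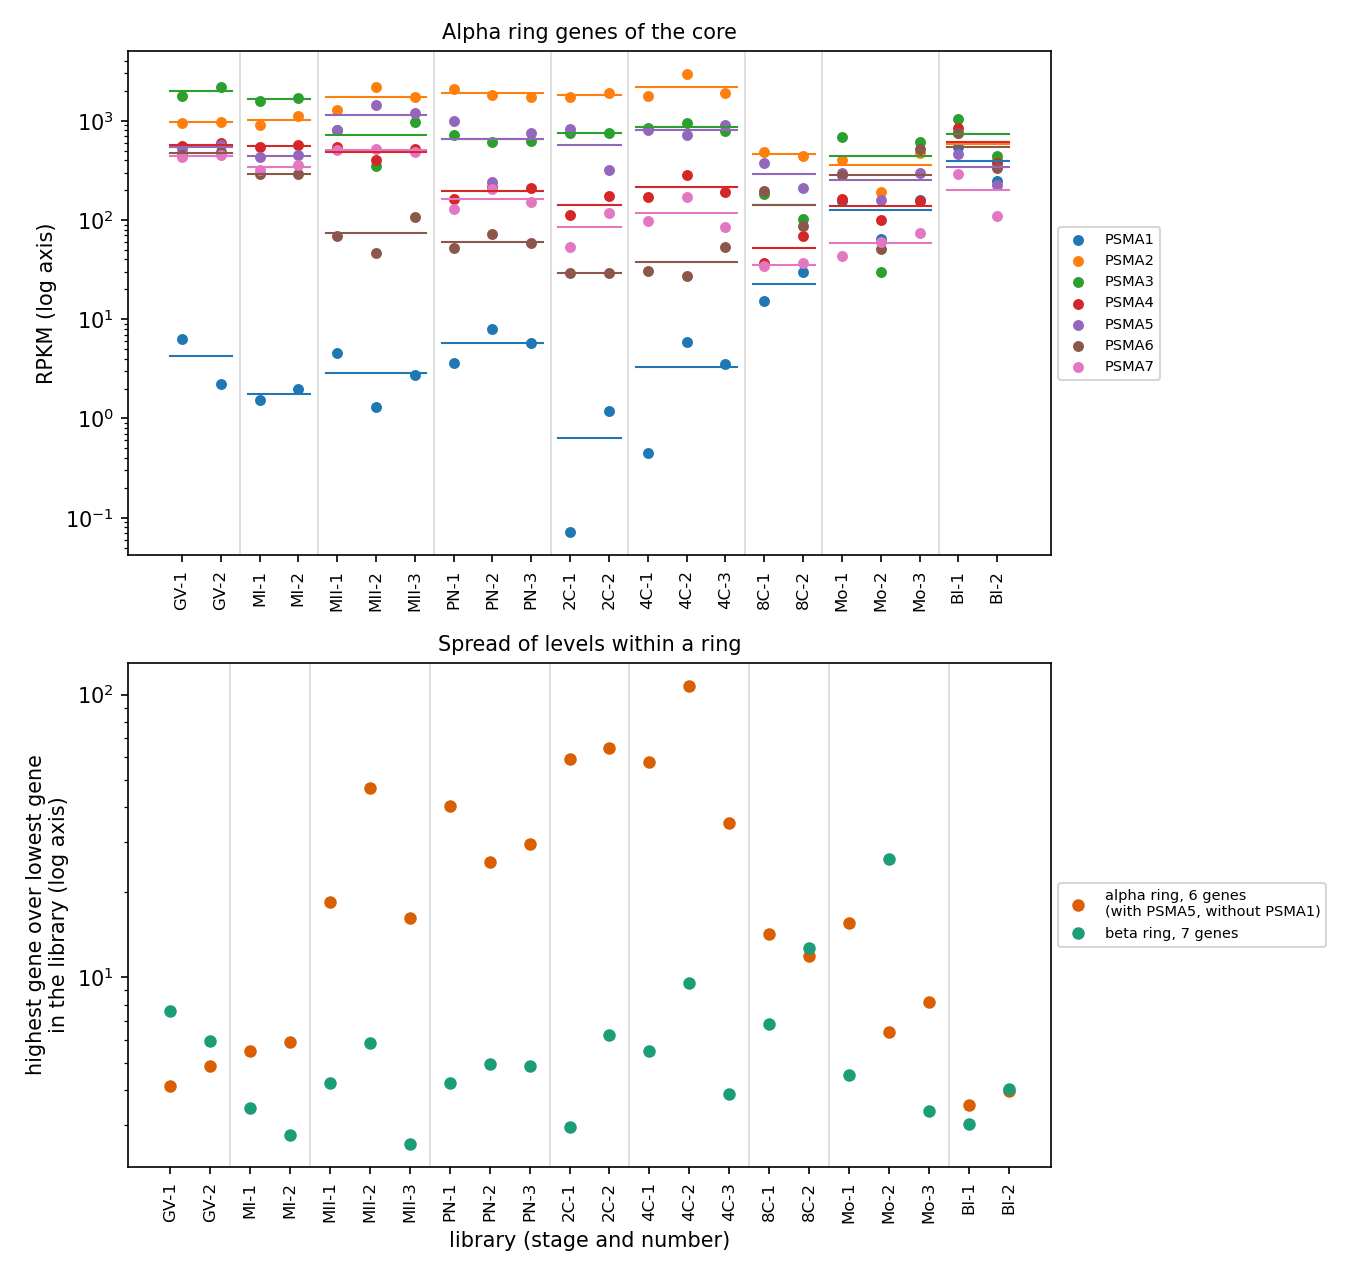
Top, RPKM of the 7 alpha ring genes in each library (points) with the stage mean (lines), on a log axis. Bottom, ratio of the highest to the lowest gene of a ring in each library, on a log axis: the alpha ring without PSMA1 reaches 107 in a 4C library and is 3.54 and 3.98 in the 2 blastocysts, while the beta ring stays lower than the alpha ring in every library from MII to 4C.

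In PSMB1, PSMB2, PSMB5 and PSMB7 the means at GV, MI and Bl were above those of all stages between MII and Mo, which was not so in PSMB3, PSMB4 and PSMB6. PSMB5 (ENSMMUG00000006007), the chymotrypsin-like catalytic subunit, measured 337 and 297 RPKM at GV, 264 and 195 at MI and 59.3, 58.5 and 82.8 at MII. In embryos it measured 56.1, 134 and 49.6 RPKM at PN, 89.5 and 24.7 at 2C, 77.7, 81.8 and 55.8 at 4C, 56.5 and 56.4 at 8C, 93.2, 25.9 and 227 at Mo and 570.2 and 279.7 at Bl. The MII libraries were all below those of GV and MI, and both blastocysts were above all 3 morulae. The other catalytic genes are named only in another column of the file. PSMB7, the trypsin-like subunit, measured 522 and 424 RPKM at GV, 99.3, 73.8 and 139.8 at MII, 78.1 and 24.3 at 8C and 1063 and 552 at Bl. PSMB6, the caspase-like subunit, measured 234 and 271 RPKM at GV, 189, 187 and 196 at MII, 179 and 153 at 8C and 1316 and 606 at Bl, so its values from GV to 8C lay closer together.

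Among the structural beta genes, PSMB1 averaged 458 ± 33.1 RPKM at GV, 62.6 ± 34.9 at MII, 43.7 ± 11.7 at 4C and 376 ± 157 at Bl (SD over the libraries of the stage, here and where ± follows a mean). PSMB2 averaged 250.4 ± 15.0 RPKM at GV, 71.9 ± 18.7 at 4C and 293 ± 202 at Bl. PSMB3 averaged 483 ± 21.1 RPKM at GV, 174 ± 69.9 at MII and 634 ± 377 at Bl. PSMB4 differed, with 68.8 and 78.3 RPKM at GV, 136 and 166 at MI, 98.9 and 52.3 at 8C, 199.9, 677 and 227 at Mo and 727 and 405 at Bl. Its GV libraries were low beside those of MI. Mo library 2 held its highest morula value, as it did for 13 of the 45 entries, while 28 had their lowest there.

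The immunoproteasome subunits, which replace the constitutive catalytic sites after interferon exposure, were near 0 until late. PSMB8 was at 0 in 19 of 22 libraries, at 0.109 RPKM in MI library 1, and at 1.38 and 1.40 RPKM in the 2 blastocysts. PSMB9 was below 1 RPKM in every library up to 4C and measured 4.21 and 0 RPKM at 8C, 0.797, 0 and 2.95 at Mo and 5.24 and 0.728 at Bl, so libraries of 1 stage differed widely. PSMB10, again named only in another column, measured 11.5 and 0.941 RPKM at Bl and at most 1.47 RPKM in any other library. PSME2, a subunit of the interferon-induced PA28 activator, measured 2.16 and 0.931 RPKM at GV, 1.27, 0 and 0 at MII, 4.31 and 0.121 at 8C, 0.940, 0 and 2.05 at Mo and 27.9 and 23.2 at Bl, and both blastocysts were above all other libraries. Its partner PSME1 measured 7.55 and 7.96 RPKM at GV, 0.348 and 0.202 at 8C, 0.024, 4.36 and 0 at Mo and 6.10 and 4.17 at Bl. Since blood cells express these genes, leukocyte markers were set beside them. Of 10 listed, 9 were matched, and their summed level was 25.7 to 27.8 RPKM at Bl, 4.40 to 8.07 at Mo and 1.71 to 31.6 at 8C. PTPRC and CD74 were at 0 in all Bl and Mo libraries, and CD14, CD52, CD68 and CSF1R were below 2 RPKM in each of them. The others reached higher levels. TYROBP measured 1.11, 4.39 and 5.02 RPKM at Mo and 23.8 and 9.41 at Bl, LYZ 3.66, 0 and 2.06 at Mo and 0 and 10.8 at Bl, and LCP1 0, 0.013 and 0 at Mo and 2.85 and 3.95 at Bl. At 8C, library 1 held the higher value of PSMB9 and of PSME2. In that library CD52 measured 26.7 RPKM, CSF1R 2.51 and CD74 1.83, against 0, 0.639 and 0 in 8C library 2. CD68, LCP1 and LYZ were below 1 RPKM in both 8C libraries, and CD14, PTPRC and TYROBP were at 0. The part of cells with these markers in the levels of the induced subunits was not tested.

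The other caps followed courses of their own. PSME4, the nuclear PA200 activator, measured 0.623 and 0.911 RPKM at GV, 1.83, 1.40 and 0.385 at MII, 1.19, 2.70 and 0.594 at 4C, 5.83 and 6.98 at 8C, 14.8, 28.8 and 10.4 at Mo and 20.3 and 19.9 at Bl, and every library from 8C on was above every earlier one. PSME3, the nuclear PA28 gamma activator, measured 37.8 and 25.5 RPKM at GV, 34.8, 28.6 and 31.4 at MII, 15.1, 25.7 and 21.0 at 4C, 14.8 and 7.81 at 8C, 7.91, 24.9 and 5.51 at Mo and 15.6 and 14.1 at Bl, so the order of the 2 genes turned between 4C and Bl. PSMF1, the inhibitor PI31, measured 8.18 and 9.28 RPKM at GV, 12.4 and 9.72 at MI, 1.65, 0.082 and 1.59 at MII, 9.96, 21.2 and 12.6 at PN, 17.0 and 21.0 at 2C, 2.61 and 9.42 at 8C and 10.8 and 5.18 at Bl. Its MII libraries were below those of GV, MI and PN without overlap.

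**Figure D3:**
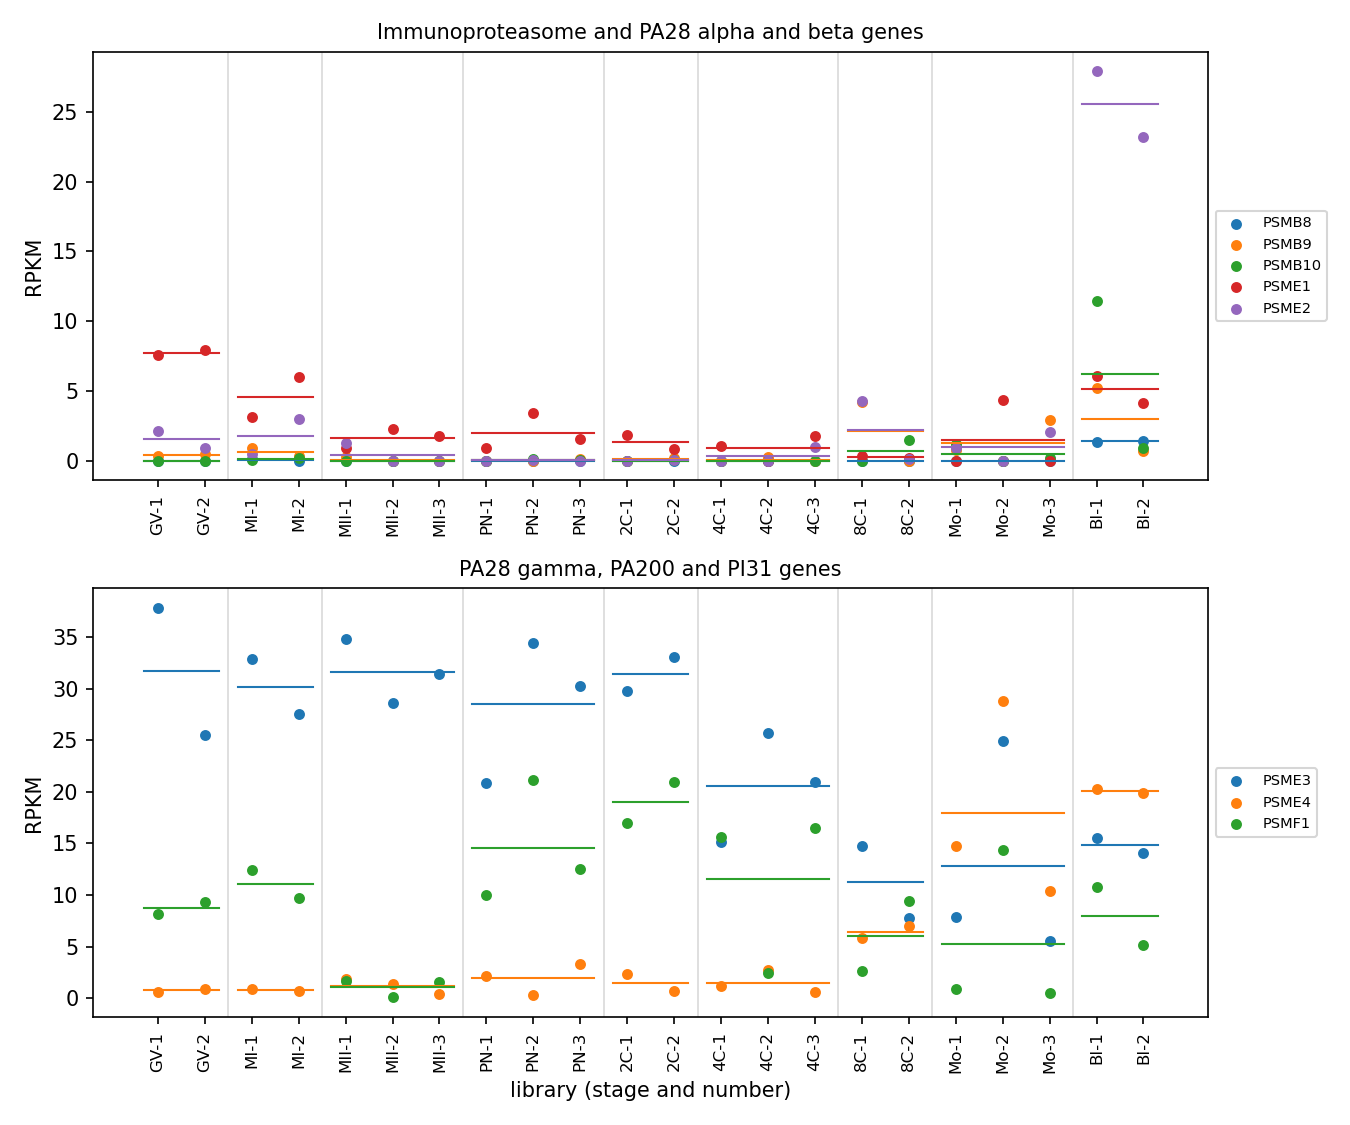
RPKM of the immunoproteasome and PA28 alpha and beta genes (top) and of the PA28 gamma, PA200 and PI31 genes (bottom) in each library (points) with the stage mean (lines). PSME2 reaches 27.9 and 23.2 RPKM in the 2 blastocysts, PSMB10 is high in 1 blastocyst alone, and PSME4 is above 5 RPKM in every library from 8C on.

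Base ATPase genes were low at MII or 2C and high at Bl. PSMC3 (ENSMMUG00000015611) was low for longest: it measured 2.84 and 3.92 RPKM at GV, 2.88 and 6.61 at MI and 0.972, 0.826 and 0.836 at MII. In embryos it measured 4.46, 6.26 and 2.23 RPKM at PN, 0.222 and 1.82 at 2C, 1.65, 1.63 and 0.091 at 4C, 3.08 and 6.63 at 8C, 50.8, 8.94 and 86.6 at Mo and 179.6 and 89.3 at Bl. Every library up to 8C was below every Mo and Bl library. PSMC1 measured 78.3 and 77.8 RPKM at GV, 93.9 and 72.4 at MI, 25.5, 21.4 and 27.5 at MII, 35.9 and 13.1 at 8C, 53.3, 61.9 and 73.5 at Mo and 203 and 86.1 at Bl, with MII below GV and MI throughout. PSMC5 measured 47.0 and 38.4 RPKM at GV, 27.3 and 21.9 at MI, 8.37, 2.97 and 6.63 at MII, 9.04, 6.51 and 26.0 at Mo and 31.8 and 29.7 at Bl, and its Bl libraries were below its GV libraries. PSMC2 averaged 77.8 ± 5.99 RPKM at GV, 13.1 ± 4.21 at MII, 62.5 ± 5.34 at PN and 136 ± 78.3 at Bl. PSMC4 averaged 39.6 ± 7.06 RPKM at GV, 24.8 ± 7.94 at MII, 77.5 ± 5.31 at 8C and 89.5 ± 50.6 at Bl. PSMC2 was 0.222 RPKM in Mo library 2, against 54.6 and 67.1 in Mo libraries 1 and 3.

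PSMC6 was split over 4 entries on chromosome 7. The most abundant, ENSMMUG00000029348, lies at 115733625 to 115735181, IMMRNTR205 at 115663508 to 115665273, IMMRNTR253 at 115659305 to 115661540 and IMMRNTR264 at 115671667 to 115675334, so the 4 are counted as entries and not as separate genes. How reads were shared among them is not known. The first entry measured 53.6 and 72.4 RPKM at GV, 83.0 and 51.7 at MI, 10.6, 8.75 and 12.7 at MII, 16.7, 22.9 and 13.9 at 4C, 100.4 and 42.2 at 8C, 98.4, 84.4 and 131 at Mo and 284 and 128 at Bl. Over the same stages IMMRNTR264 averaged 10.9 ± 1.98 RPKM at GV, 4.02 ± 1.29 at MII and 29.9 ± 10.6 at Bl. IMMRNTR205 averaged 1.95 ± 0.994 RPKM at GV, 0.652 ± 0.447 at MII and 16.4 ± 5.76 at Bl, and IMMRNTR253 averaged 1.42 ± 0.498 at Bl and 0.117 ± 0.047 at MII.

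Of the large scaffold subunits of the base, PSMD1 stayed within 29.4 to 104 RPKM over all libraries, and PSMD2 averaged 22.2 ± 5.27 RPKM at GV, 6.04 ± 2.12 at MII and 29.0 ± 3.92 at Bl. PSMD4, a ubiquitin receptor, was not analysed here, since the entry whose description names it carries the symbol of another gene.

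In the lid, PSMD14 (ENSMMUG00000011906), the deubiquitinase, measured 61.5 and 59.2 RPKM at GV, 67.5 and 46.5 at MI, 10.9, 13.3 and 13.3 at MII, 15.1, 16.4 and 15.7 at PN, 6.25 and 13.6 at 2C and 11.5, 10.3 and 25.8 at 4C. Later it measured 51.2 and 16.5 RPKM at 8C, 98.1, 60.7 and 118 at Mo and 296 and 139 at Bl. All 8 libraries of MII, PN and 2C were below all GV and MI libraries, and both blastocysts were above every other library. PSMD12 measured 20.5 and 23.0 RPKM at GV, 17.2, 8.27 and 17.1 at MII, 6.15, 2.52 and 16.8 at 4C, 90.4 and 46.4 at 8C, 51.1, 79.4 and 43.0 at Mo and 60.3 and 40.4 at Bl, and all 7 libraries from 8C on were above all earlier ones. PSMD13 measured 16.4 and 16.6 RPKM at GV, 16.7 and 11.4 at MI, 0.176, 1.48 and 0.503 at MII, 6.18, 12.4 and 7.43 at PN, 54.7 and 10.3 at 8C, 38.0, 0.894 and 41.1 at Mo and 75.8 and 49.9 at Bl, with all 3 MII libraries under 2 RPKM. PSMD6 measured 60.7 and 51.1 RPKM at GV, 57.1 and 60.3 at MI, 13.2, 0.729 and 6.79 at MII and 136 and 31.1 at Bl. PSMD8 (IMMRNTR1339, named from the file) measured 39.1 and 29.6 RPKM at GV, 11.5 and 19.0 at MI, 2.49, 0.556 and 0.717 at MII, 2.52, 0.125 and 4.18 at 4C, 23.3 and 13.5 at 8C and 21.6 and 17.9 at Bl. In both PSMD6 and PSMD8 the MII libraries were below all GV and MI libraries. PSMD11 averaged 80.8 ± 15.5 RPKM at MII, 31.4 ± 3.23 at 8C and 129 ± 26.3 at Bl, and PSMD3 was below 3 RPKM in every library. PSMD7, named only in another column, averaged 84.9 ± 14.5 RPKM at MII, 13.7 ± 2.62 at 4C and 130.2 ± 49.6 at Bl.

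Among the assembly chaperones, PSMD9 and PSMD10, which act on the base, had the highest mean levels at GV, MI and MII. PSMD9 measured 109.8 and 103 RPKM at GV, 135, 128 and 133 at MII, 151, 145 and 119 at PN, 55.9, 56.4 and 86.4 at 4C, 67.6 and 68.8 at 8C, 12.7, 0.203 and 7.19 at Mo and 61.3 and 28.8 at Bl, so morulae were below both neighbours. PSMD10, gankyrin, averaged 146 ± 12.8 RPKM at MI, 11.3 ± 7.44 at 8C and 37.9 ± 20.6 at Bl. PSMD5 was at most 5.11 RPKM. Of the alpha ring chaperones, PSMG1 averaged 31.8 ± 1.53 RPKM at MII, 41.1 ± 8.44 at 8C and 19.7 ± 7.70 at Bl. PSMG3 averaged 29.4 ± 9.72 RPKM at GV, 0.591 ± 0.545 at 2C and 22.4 ± 5.94 at Bl. PSMG4, the partner of PSMG3, measured 3.86 and 3.70 RPKM at GV, 1.05, 0 and 0 at MII, 0, 0 and 0.488 at Mo and 22.4 and 2.61 at Bl, so its level at Bl rests mainly on library 1. PSMG2, named only in another column, stayed under 2 RPKM and did not pass the filter.

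Outside the proteasome, PSME3IP1, whose product binds the PA28 gamma activator, averaged 132 ± 18.5 RPKM at MII, 20.3 ± 0.342 at 8C, 5.88 ± 5.0 at Mo and 15.6 ± 3.42 at Bl. PSMC3IP, a cofactor of meiotic recombination, averaged 9.45 ± 0.894 RPKM at Bl and 5.05 ± 1.07 at MII.

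Neighbouring stages were compared with limma on log2(RPKM + 1), with p-values adjusted over all 14312 tested entries. The libraries of the stages compared did not overlap for any of the member entries called in the pairs of stages. The share without overlap among all called entries is not given, so with few libraries per stage this adds no support. Since RPKM is relative, the median log2 change of all tested entries is given where it exceeded 0.1 in size, and changes are to be read against it.

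MII oocytes were set against GV oocytes to follow maturation, and 12 of the 45 entries (26.7%) were called lower in MII than in GV oocytes, where 8.97% of all tested entries were. Entries called higher numbered 0, also at an unadjusted p under 0.05, where 0.342% of all entries were called higher; at an unadjusted p under 0.05, 18 were lower. The fall took in 4 of 7 lid entries, 3 of 9 base ATPase entries, 2 of 6 chaperones and 1 entry each of the alpha ring, beta ring and catalytic genes. The median log2 change was -0.91 over the members and -0.19 over all tested entries. The largest changes were in PSMD8 (log2 change -4.06 ± 0.86 SE, adjusted p = 0.00588 by limma), PSMD13 (log2 change -3.42 ± 1.04 SE, adjusted p = 0.0452), PSMD6 (log2 change -3.30 ± 0.81 SE, adjusted p = 0.0148), PSMB1 (log2 change -3.0 ± 0.61 SE, adjusted p = 0.00493), PSMC5 (log2 change -2.73 ± 0.58 SE, adjusted p = 0.00588) and PSMA6 (log2 change -2.71 ± 0.69 SE, adjusted p = 0.0179). The others called were PSMB5, PSMC1, PSMC6 (ENSMMUG00000029348), PSMD14, PSMG3 and PSMG4. Markers of cumulus and granulosa cells, which surround the oocyte, summed to 22.5 to 67.8 RPKM at GV, 58.7 to 76.8 at MI and 23.0 to 91.2 at MII over 10 genes. Nearly all of this sum was TNFAIP6, with 65.5 and 20.8 RPKM at GV, 76.2 and 57.3 at MI and 38.4, 21.1 and 90.4 at MII, while AMH, FOXL2, INHA and PTX3 were at 0 in all 3 stages. The part of such cells in the changes was not tested. With median-of-ratios scaling 5 entries were called lower, and the adjusted p by limma was 0.116 for PSMD13 and 0.0666 for PSMD6. With a pseudocount of 0.1 RPKM 7 were called, and it was 0.076 for PSMD13. Calls also depended on single libraries. Without GV library 1 the adjusted p by limma was 0.0729 to 0.23 for all 6 named genes and 1 entry was called. Without GV library 2 it was 0.199 for PSMD13, 0.086 for PSMD6 and 0.12 for PSMA6 and 3 entries were called. Without MII library 2 it was 0.0768 to 0.0791 for the same 3 genes with 6 entries called. For PSMD13 it was 0.117 without MII library 1 and 0.0931 without MII library 3, where 7 entries were called.

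The comparison of MII with MI oocytes shares the MII libraries with the previous one. Here 7 of 45 entries (15.6%) were called lower at MII and 6.99% of all tested entries were. The count of entries called higher was 0 by limma (1 at an unadjusted p under 0.05), and 1.49% of all entries were called higher. The members' median log2 change was -0.97, that of all entries -0.14. The named genes were PSMD6 (log2 change -3.37 ± 0.81 SE, adjusted p = 0.015 by limma), PSMD8 (log2 change -2.91 ± 0.86 SE, adjusted p = 0.0423), PSMB1 (log2 change -2.67 ± 0.61 SE, adjusted p = 0.0111), PSMC6 (log2 change -2.52 ± 0.50 SE, adjusted p = 0.00425), PSMD14 (log2 change -2.08 ± 0.53 SE, adjusted p = 0.0201) and PSMC5 (log2 change -1.95 ± 0.58 SE, adjusted p = 0.0425), and PSMC1 was also called. With median-of-ratios scaling 2 entries were called lower, and the adjusted p by limma was 0.0653 for PSMD6, 0.172 for PSMD8, 0.0902 for PSMD14 and 0.133 for PSMC5. With a pseudocount of 0.1 RPKM 4 were called, and it was 0.0741 for PSMD8 and 0.0785 for PSMC5. Without MI library 1 the adjusted p was 0.097 to 0.269 for the 6 named genes and 0 entries were called. Without MI library 2 it was 0.0928 to 0.27, and without MII library 2 it was 0.0541 to 0.17, for the named genes other than PSMC6, with 1 entry called in each case. Without MII library 1 it was 0.0511 for PSMD8, 0.06 for PSMD14 and 0.0509 for PSMC5 with 3 entries called. Without MII library 3 it was 0.1 for PSMD8 and 0.0687 for PSMC5 with 4 called.

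At PN, after fertilization, 1 member (2.2%) was called higher than at MII and 4.76% of all tested entries were. A further 2 members (4.4%) were called lower and 2.91% of all entries were. The shares are near those of all entries. The higher gene was PSMF1 (log2 change 2.93 ± 0.76 SE, adjusted p = 0.0234 by limma), and the lower ones were PSMA7 (log2 change -1.67 ± 0.41 SE, adjusted p = 0.0181) and PSMA4 (log2 change -1.32 ± 0.38 SE, adjusted p = 0.0404). Each of the 3 calls was lost without single libraries. For PSMF1 the adjusted p by limma was 0.0504 without MII library 1, 0.111 without MII library 2, 0.096 without PN library 2 and 0.0563 without PN library 3. For PSMA7 it was 0.0506 to 0.0649 without any 1 library of the 2 stages other than PN library 2, and for PSMA4 it was 0.0651 to 0.132 without any 1 of the 6 libraries. With median-of-ratios scaling none of the 3 was called.

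At 4C compared with PN no proteasome entry was called in either direction by limma (0 of 45, and also 0 at an unadjusted p under 0.05), and 0.0489% of all tested entries were called higher at 4C and 0.0489% lower. The median log2 change was -0.28 over the members and -0.17 over all entries.

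At 8C, 6 of 45 entries (13.3%) were called higher than at 4C and 5 (11.1%) lower. Of all tested entries 13.9% were called higher and 10.2% lower, so the members' shares are near those of all entries. Of 7 core and germline alpha entries, 5 were lower and 1 higher. Of 18 base and lid entries, 4 were higher, 2 of them entries of PSMC6. The lower calls were all alpha genes: PSMA3 (log2 change -2.65 ± 0.88 SE, adjusted p = 0.0339 by limma), PSMA2 (log2 change -2.21 ± 0.42 SE, adjusted p = 0.000646), PSMA8 (log2 change -2.07 ± 0.69 SE, adjusted p = 0.0345), PSMA4 (log2 change -2.04 ± 0.43 SE, adjusted p = 0.00153) and PSMA7 (log2 change -1.63 ± 0.46 SE, adjusted p = 0.0138). The higher calls were PSMD12 (log2 change 3.10 ± 0.62 SE, adjusted p = 0.00103), PSMD8 (log2 change 2.78 ± 0.86 SE, adjusted p = 0.0237), PSMA1 (log2 change 2.66 ± 0.67 SE, adjusted p = 0.00621), PSMC6 (log2 change 1.84 ± 0.50 SE, adjusted p = 0.0104), its entry IMMRNTR253 and PSME4. With median-of-ratios scaling 10 entries were higher and 3 lower. The calls of PSMD12, PSMA2 and PSMA4 held in every alternative run. Without 8C library 1 the adjusted p by limma was 0.159 for PSMD8, 0.177 for PSMC6, 0.0766 for PSMA3, 0.259 for PSMA8 and 0.0769 for PSMA7, and 3 entries were called higher and 2 lower. Without 8C library 2 it was 0.0522 for PSMD8, 0.0731 for PSMA1, 0.183 for PSMA3 and 0.0505 for PSMA7. Without 4C library 1 it was 0.0694 for PSMA3 and 0.0908 for PSMA8. Without 4C library 2 it was 0.103 for PSMD8, 0.0759 for PSMA3 and 0.0625 for PSMA7. Without 4C library 3 it was 0.0653 for PSMA3 and 0.102 for PSMA8. Each of these 4 omissions left 3 lower calls.

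In morulae, 6 entries (13.3%) were called higher than at 8C, against 5.39% of all tested entries, and 4 (8.9%) were called lower, against 20.0% of all entries. The higher genes were PSMC3 (log2 change 2.67 ± 0.72 SE, adjusted p = 0.0101 by limma), PSMA1 (log2 change 2.39 ± 0.67 SE, adjusted p = 0.0119), PSMB4 (log2 change 2.11 ± 0.75 SE, adjusted p = 0.0451), PSMD14 (log2 change 1.57 ± 0.53 SE, adjusted p = 0.0355), PSMC1 (log2 change 1.47 ± 0.48 SE, adjusted p = 0.0286) and PSMA4 (log2 change 1.43 ± 0.43 SE, adjusted p = 0.0184). The lower ones were PSMD9 (log2 change -3.75 ± 0.67 SE, adjusted p = 0.000339), PSMA8, PSMD3 and, outside the proteasome, PSME3IP1. The members' median log2 change was 0.04 and that of all entries -0.38. With median-of-ratios scaling the calls were 9 higher and 2 lower. In a fit of the 8C and Mo libraries alone 0 members were called in either direction. Without 8C library 1 the adjusted p by limma was 0.101 for PSMC3, 0.119 for PSMA1, 0.068 for PSMB4 and 0.205 for PSMA4. Without 8C library 2 it was 0.26 for PSMB4, 0.439 for PSMD14 and 0.373 for PSMC1, and 3 entries were called higher and 1 lower. Without Mo library 1 it was 0.0706 for PSMD14, without Mo library 2 0.133 for PSMB4, and without Mo library 3 0.098 for PSMD14 and 0.07 for PSMC1.

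In blastocysts 8 entries (17.8%) were called higher than in morulae, against 12.0% of all tested entries. None was called lower by limma (0 of 45, and 0 at an unadjusted p under 0.05), against 2.12% of all entries, while 21 members were higher at an unadjusted p under 0.05. The named genes were PSME2 (log2 change 3.87 ± 0.61 SE, adjusted p = 0.000237 by limma), PSMD9 (log2 change 3.07 ± 0.67 SE, adjusted p = 0.00393), PSMG4 (log2 change 3.01 ± 0.55 SE, adjusted p = 0.000835), PSMB5 (log2 change 2.27 ± 0.69 SE, adjusted p = 0.034), PSMA4 (log2 change 2.05 ± 0.43 SE, adjusted p = 0.00275) and PSMA7 (log2 change 1.63 ± 0.46 SE, adjusted p = 0.0223), and PSMD11 and PSMB8 were also called. PSMB8 had passed the filter through the blastocysts alone, so its call adds no support. The median log2 change was 1.26 over the members and 0.23 over all entries. With median-of-ratios scaling the members' median was 0.75 and 4 were called. In a fit of the Bl and Mo libraries alone 1 entry was called, and none of the 6 named genes. Without Bl library 1, in which most members were higher, 3 entries were called and the adjusted p by limma was 0.0796 for PSMD9, 0.286 for PSMB5, 0.0851 for PSMA4 and 0.36 for PSMA7. Without Bl library 2 it was 0.0505 for PSMB5, without Mo library 1 0.064 for PSMA7, and without Mo library 2 0.107 for PSMB5, while without Mo library 3 13 entries were called.

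**Figure D4:**
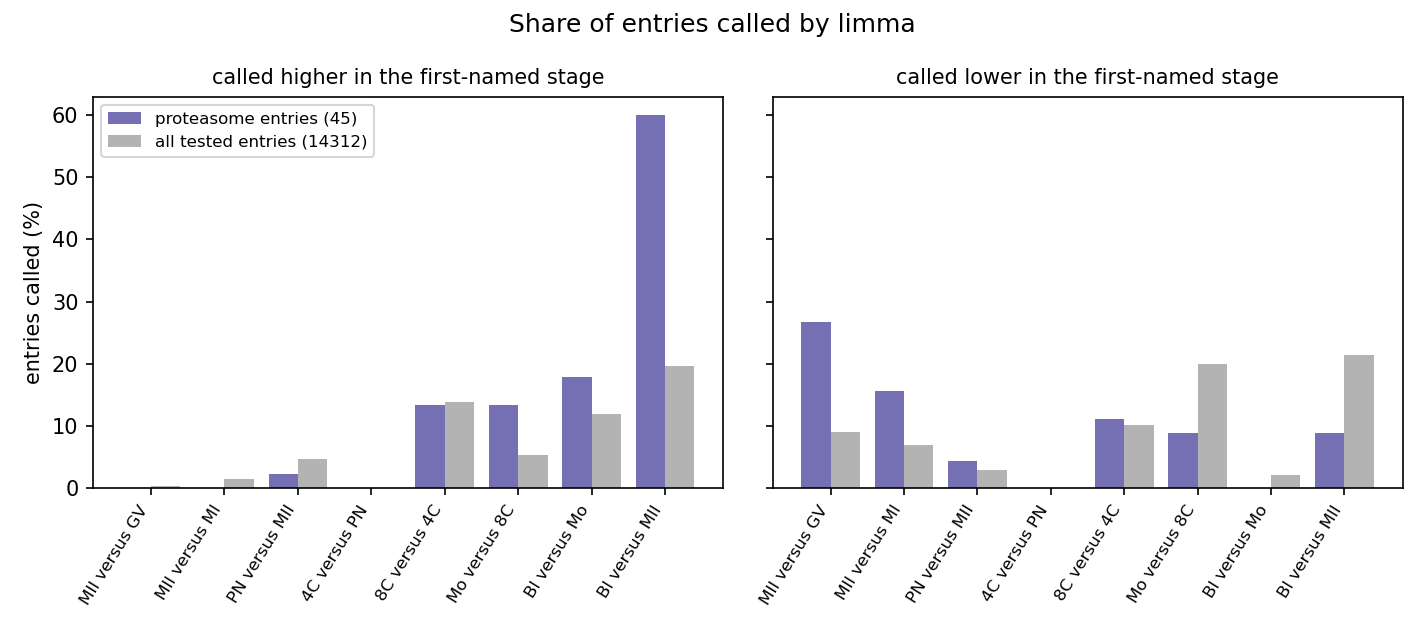
Share of entries called higher (left) or lower (right) in the first-named stage of each comparison, in percent, for the 45 proteasome entries and for all 14312 tested entries. The proteasome share is 60.0% against 19.7% for entries higher at Bl than at MII and 26.7% against 8.97% for entries lower at MII than at GV, a count of 12 that was 5 with median-of-ratios scaling.

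Across the whole course after maturation, with blastocysts set against MII oocytes, 27 entries (60.0%) were called higher at Bl, against 19.7% of all tested entries. A further 4 (8.9%) were called lower, against 21.4% of all entries. Bl and MII also differ in source, which cannot be told apart from stage. All 9 base ATPase entries were higher, 4 of them entries of PSMC6. So were 5 of 7 lid entries, 3 of 4 structural beta genes, PSMB5, PSMB8, PSMB9, PSMD2, PSMG3, PSMG4, PSME2 and PSME4. Of these, PSMB8 had passed the filter through the blastocysts alone. The core alpha ring was divided, with PSMA1 and PSMA6 higher and PSMA2 and PSMA7 lower, and PSMA8 and PSME3IP1 were the other lower calls. The median log2 change was 1.81 over the members and -0.01 over all entries. The largest rises were in PSMA1 (log2 change 6.66 ± 0.67 SE, adjusted p = 2.89e-07 by limma), PSMC3 (log2 change 6.09 ± 0.72 SE, adjusted p = 2.3e-06), PSMD13 (log2 change 5.26 ± 1.04 SE, adjusted p = 0.000472), PSME2 (log2 change 4.33 ± 0.61 SE, adjusted p = 1.63e-05), PSMC6 (log2 change 4.05 ± 0.50 SE, adjusted p = 3.16e-06) and PSMD14 (log2 change 3.92 ± 0.53 SE, adjusted p = 9.81e-06), and these 6 calls held in every alternative run. The falls among proteasome genes were in PSMA8 (log2 change -2.35 ± 0.69 SE, adjusted p = 0.0101), PSMA2 (log2 change -1.62 ± 0.42 SE, adjusted p = 0.00416) and PSMA7 (log2 change -1.48 ± 0.46 SE, adjusted p = 0.0147). Without Bl library 1 the number called higher was 16. Without Bl library 2 the number called lower was 1, and the adjusted p by limma was 0.0721 for PSMA8, 0.0815 for PSMA2 and 0.28 for PSMA7. With median-of-ratios scaling PSMA7 was not called (adjusted p = 0.172).

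**Figure D5:**
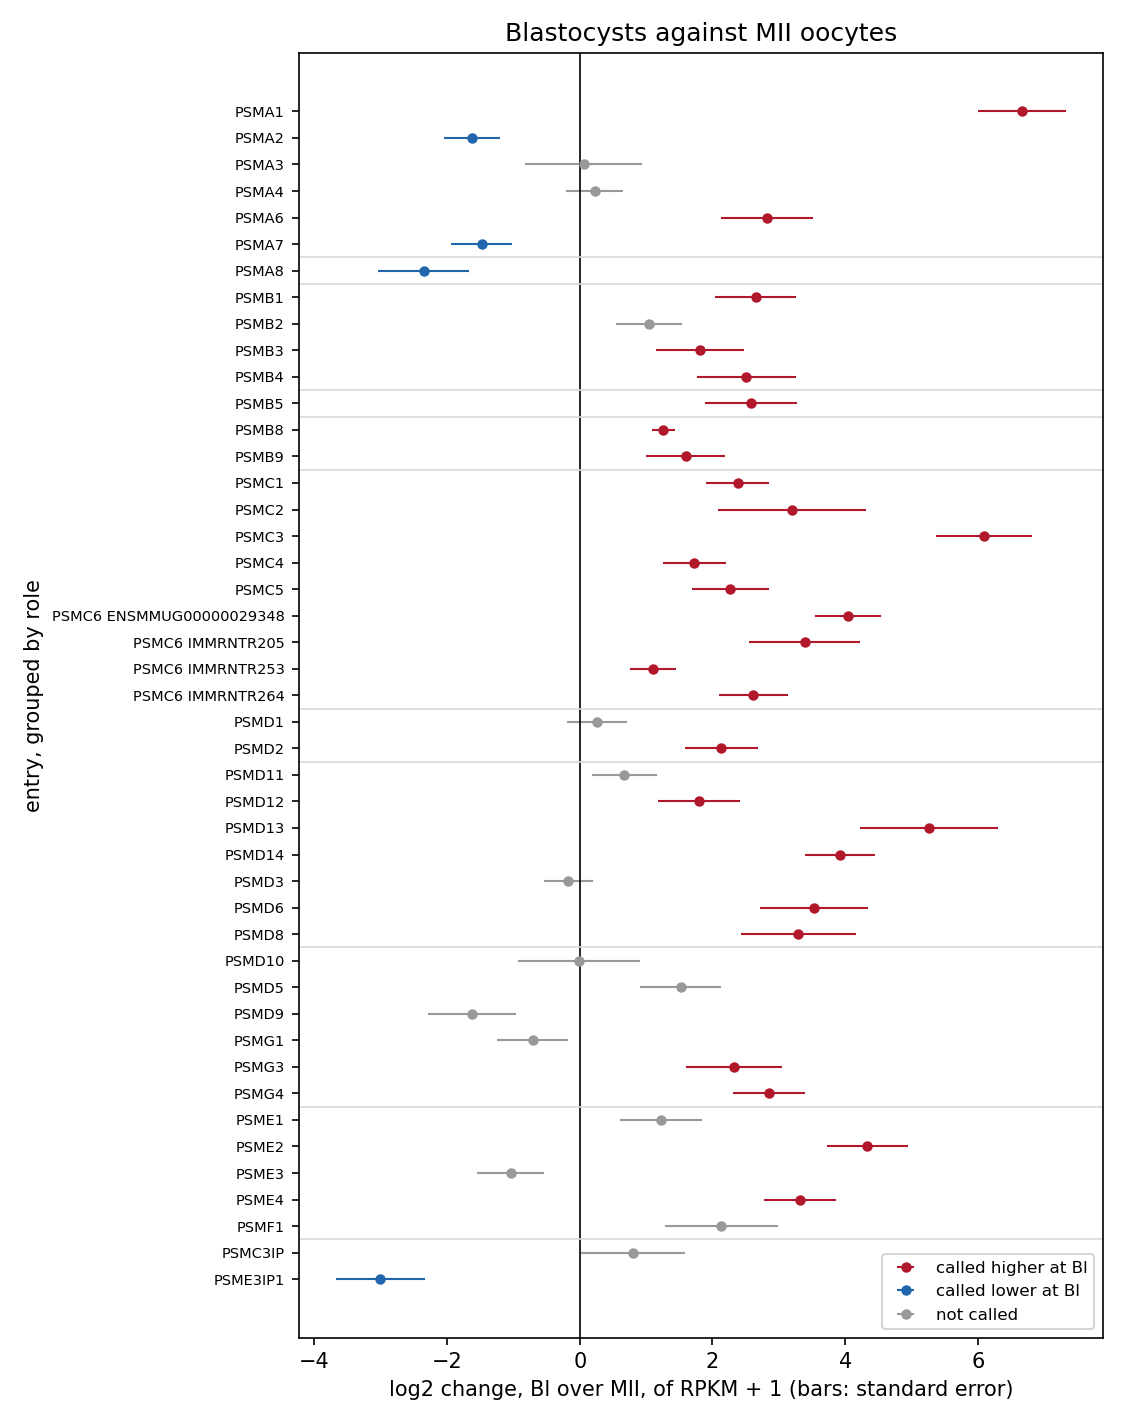
Log2 change of RPKM + 1 between 2 blastocysts and 3 MII oocytes (points, with the standard error from limma as bars) for each of the 45 entries, grouped by role. Points right of 0 are higher at Bl: all base ATPases lie there, while the alpha ring runs from 6.66 for PSMA1 to -1.62 for PSMA2.

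A list of 31 genes that act beside the proteasome (assembly factors, ubiquitin shuttles, transcription factors of proteasome genes and ubiquitin genes) was set beside the subunits. Of these 27 were matched, and 29 entries of 26 genes were tested. At Bl against MII 7 entries (24.1%) were called higher and 6 (20.7%) lower, against 19.7% and 21.4% of all tested entries, so the shares are near those of all entries. The higher ones were POMP, the chaperone of core assembly, SEM1, a small lid subunit, the segregase VCP with its cofactors NPLOC4 and UFD1, the ligase UBE3C and TXNL1. The lower ones were AKIRIN2, which carries proteasomes into the nucleus, the proteasomal deubiquitinase USP14, the shuttle UBQLN1, the ligase TRIP12, PITHD1 and PAAF1. At MII 4 entries (13.8%, against 8.97% of all) were lower than at GV, SEM1, FBXO7, TXNL1 and RNF181, and 0 were higher by limma (0 at an unadjusted p under 0.05). SEM1, VCP, UFD1 and UBE3C were higher at 8C than at 4C (13.8%, against 13.9% of all) and PITHD1 was lower (3.4%, against 10.2%). At Mo POMP and RPS27A were higher than at 8C (6.9%, against 5.39% of all), and 6 entries (AKIRIN2, UBA6, UBQLN1, FBXO7, NGLY1 and UBB) were lower (20.7%, against 20.0%). In the other comparisons 1 entry was lower (3.4%, against 6.99% of all) and 0 were higher at MII than at MI (1 higher at an unadjusted p under 0.05). At PN against MII 2 were higher (6.9%, against 4.76% of all) and 1 lower (3.4%, against 2.91%). Of the entries 0 were called at 4C against PN (2 lower and 0 higher at an unadjusted p under 0.05). Bl against Mo gave 4 higher entries (13.8%, against 12.0% of all) and 2 lower ones (6.9%, against 2.12%). POMP averaged 516 RPKM at Bl and 145 RPKM at MII, AKIRIN2 12.5 RPKM at Bl and 717 RPKM at MII and VCP 49.8 RPKM at Bl and 1.44 RPKM at MII.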

How the data were processed

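Per the labels' protocols, cDNA was made from lysed single oocytes and embryos with a SMARTer kit for low input, whose primer binds poly(A) tails, and TruSeq libraries were prepared from it. The authors deposited RPKM values in 1 table, with a column for each of the 22 libraries; the genome build is Mmul_8.0.1 per the submitters' processing notes, and the aligner, the counting program and its strand setting are not given in the sources used here. Positions are as in the table, which names no build itself. Of the 45 member entries, 40 took their symbol from the name table given with the data and 5 from the file. Of 7 further entries that only another gene name column assigns to the proteasome, 6 passed the filter and are described by their values alone.

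Depth was estimated from low values of features under 200 bp, of which 468 of 510 (91.8%) came out as whole reads to within 0.05. No count test was run, since whole counts cannot be had for genes of unknown exon length.

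The test used limma (3.58.1, with R 4.3.3). Values were taken as log2(RPKM + 1), each stage had its own mean, and the 22 libraries left 13 degrees of freedom for the pooled spread, moderated with a trend and robust settings, on entries with at least 1 RPKM in 2 libraries. The pseudocount of 1 understates changes of low genes. P-values are 2-sided and were adjusted by the Benjamini-Hochberg method within each comparison, and a call is an adjusted p under 0.05. The scripts were tested on simulated data. Genes were named by a rule: called, not overlapping, at least 10 RPKM in the higher stage, the 6 largest changes in each direction, beside a panel given by its values. The members and all lists were chosen with earlier results of these data known. Alternatives tried were another pseudocount (0.1), no filter, a filter of 5 RPKM, median-of-ratios scaling, only the stages compared in the fit, a replicate block, each library left out, and a fit lacking Mo library 2 for other stages. Promoter and protein sequences were not used here, and some genes of the list of factors that act beside the proteasome are not reported here.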

Additional observations from a re-analysis of the deposited data

How the results depend on the processing

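Of 46 named gene results none changed direction in any of 541 alternative values, 397 of these values kept the call and 144 lost it, and 9 results kept it in every alternative. Calls lost numbered 22 of 46 in a fit of only the stages compared, 15 of 46 with median-of-ratios scaling, 9 of 46 with no filter, 6 of 46 with a pseudocount of 0.1, 5 of 46 with the replicate block, 0 of 45 with the filter of 5 RPKM and 0 of 33 in the fit lacking Mo library 2. The counts of members called changed by over 1.5 times as follows. With a pseudocount of 0.1, 7 were lower at MII than at GV and 4 lower at MII than at MI. With no filter, 0 were higher and 1 lower at PN than at MII, and 3 lower at 8C than at 4C. With median-of-ratios scaling, 5 were lower at MII than at GV, 2 lower at MII than at MI, 0 higher and 0 lower at PN than at MII, 10 higher and 3 lower for 8C against 4C, 2 lower for Mo against 8C and 4 higher at Bl than at Mo. In a fit of only the stages compared, 1 was higher at MII than at GV, 3 higher at MII than at MI, 3 higher at PN than at MII, 2 higher for 8C against 4C, 0 higher and 0 lower for Mo against 8C, and 1 higher at Bl than at Mo. In the fit lacking Mo library 2, 15 were lower at MII than at MI, 4 higher at PN than at MII, and 12 higher and 8 lower for 8C against 4C. With the replicate number as a block, 1 was lower at PN than at MII and no other count moved by over 1.5 times. The numbers share no stated source: of 78 pairs of libraries with the same number, 3 had deviations correlated over 0.1, and of 136 pairs with different numbers, 11 did. Leaving out 1 library at a time gave 1 to 8 lower at MII than at GV, 0 to 4 lower at MII than at MI, 0 to 1 higher and 0 to 1 lower at PN than at MII, 3 to 7 higher and 2 to 3 lower for 8C against 4C, 3 to 8 higher and 1 to 5 lower for Mo against 8C, 3 to 13 higher at Bl than at Mo, 16 to 26 higher and 1 to 4 lower at Bl than at MII, and 33 to 43 called by the F test. For these changes the cause was not tested. Stages of 2 or 3 libraries limit all counts, and an entry without a call may have changed.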
